A study of Homo sapiens with 23 samples.

Results

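The genes described are 42 developmental transcription factors outside the HOX clusters, followed in HCT116 cells labelled as knockouts of MLL4 or BAP1. They are a given list of factors from 13 DNA-binding families, each represented by its RefSeq transcript row with the highest mean read count over the 8 RNA-seq libraries, out of 28105 genes represented in the same way. HCT116 is a human colorectal cancer cell line. The libraries were made from polyadenylated RNA and fall into 4 groups of 2, namely MLL4 KO, WT, BAP1 KO and control. MLL4 KO was set against WT, and BAP1 KO against control, whose genotype is also labelled WT. The deposited tables of BAP1 KO and control carry osTir1 in their names, the plant protein used for auxin-induced degradation, and those of MLL4 KO and WT do not. The labels name no treatment for a single RNA-seq library and do not say whether replicates were separate cultures or clones, so p-values measure only the spread between these libraries. The 15 ChIP-seq samples of the series are not analysed here.

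Developmental transcription factors bind DNA through a family-specific domain and direct the choice of tissue or body region during embryogenesis. In adult tissues and in cell lines most of them are silent or low, and a subset stays on according to the tissue of origin. In mammals their genes are typical targets of Polycomb repression and often lie within CpG islands with many distal enhancers. MLL4, encoded by KMT2D, is a methyltransferase that places H3K4me1 at enhancers, and BAP1 is a nuclear enzyme that takes ubiquitin off histone H2A, where Polycomb repressive complex 1 places it. The comparisons ask which of these factors depend on each protein.

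Counts summed over genes ranged from 24.8 to 42.2 M (1e6 reads) per library. Of 10 colon epithelium markers, 9 reached 1 CPM (counts per 1e6 counts of the library, scaled by TMM) in all 8 libraries and CDX1 had no read. Of 7 fibroblast markers COL1A1 alone reached 1 CPM in every library, DCN and LUM had no read, and no blood (of 6) or endothelial (of 4) marker reached that level throughout. The summed level of the 10 colon markers was 5420 to 5500 CPM in MLL4 KO against 3760 to 3890 CPM in WT. It was 3050 to 3620 CPM in BAP1 KO against 5940 to 5950 CPM in control. The higher sum in MLL4 KO came from KRT8 (mean 2950 against 1770 CPM in WT) and KRT18 (1390 against 689 CPM). EPCAM (114 against 248 CPM), CLDN4, KRT19 and VIL1 had lower means in MLL4 KO than in WT, while CDH1, CLDN3 and CDX2 had higher ones. The part of these levels in the results below was not tested. The 4 neuron markers summed to 275 to 283 CPM in BAP1 KO against 98.0 to 103 CPM in control, of which SYT1 was the only one at 1 CPM in every library. The mRNA of the targeted gene was not called lower in either knockout (edgeR, adjusted p = 0.970 for KMT2D and 0.746 for BAP1). KMT2D had 280 and 406 CPM in MLL4 KO, against 309 and 371 CPM in WT, and BAP1 had 67.4 and 57.4 CPM in BAP1 KO, against 56.7 and 62.1 CPM in control, so these mRNA levels do not check the knockout labels.

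The promoters of the factors whose changes are described most fully are shown first, as the 150 bases just upstream of the annotated start (RefSeq, GRCh38.p14). FOXC1 and MSX1 were higher in both knockouts, NR2F1 was higher in MLL4 KO, and GATA3, EN2 and RUNX2 were lower in BAP1 KO. Capitals mark matches on either strand to 3 core elements. The GC box was searched as GGGCGG. The CAAT element was searched as CCAAT, and the TATA element was searched as TATAAA.
FOXC1, chr6:1609765-1609914, plus strand: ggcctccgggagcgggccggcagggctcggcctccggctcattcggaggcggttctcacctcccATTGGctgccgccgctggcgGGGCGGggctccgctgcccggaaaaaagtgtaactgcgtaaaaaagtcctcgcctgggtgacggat
MSX1, chr4:4859515-4859664, plus strand: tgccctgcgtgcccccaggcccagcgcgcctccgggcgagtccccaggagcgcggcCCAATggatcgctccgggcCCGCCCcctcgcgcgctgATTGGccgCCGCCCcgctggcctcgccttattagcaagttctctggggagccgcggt
NR2F1, chr5:93583072-93583221, plus strand: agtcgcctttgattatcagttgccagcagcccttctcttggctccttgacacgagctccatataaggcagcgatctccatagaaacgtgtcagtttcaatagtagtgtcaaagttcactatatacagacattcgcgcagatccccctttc
GATA3, chr10:8045183-8045332, plus strand: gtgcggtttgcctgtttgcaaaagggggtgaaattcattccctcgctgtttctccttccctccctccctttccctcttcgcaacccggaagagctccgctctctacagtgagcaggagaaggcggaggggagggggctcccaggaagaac
EN2, chr7:155457979-155458128, plus strand: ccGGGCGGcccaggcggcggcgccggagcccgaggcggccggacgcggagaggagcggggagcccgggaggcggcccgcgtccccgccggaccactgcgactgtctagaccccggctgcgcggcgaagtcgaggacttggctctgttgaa
RUNX2, chr6:45328180-45328329, plus strand: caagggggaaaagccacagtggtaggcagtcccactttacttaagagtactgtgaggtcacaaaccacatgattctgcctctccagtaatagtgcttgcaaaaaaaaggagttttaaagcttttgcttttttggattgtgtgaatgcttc
These starts are the outermost (most upstream) annotated start of each gene in the RefSeq table, and a gene such as RUNX2 or GATA3 may be transcribed from others. Over the 250 bases upstream, the ratio of observed to expected CpG was 1.01 for FOXC1, 1.11 for EN2, 0.719 for MSX1, 0.480 for GATA3, 0.472 for NR2F1 and 0 for RUNX2, which has no CpG there. Both the factors that rose and those that fell include CpG-rich and CpG-poor starts. A promoter was present for 29 of the 42 factors, and not for TBX2, TBX3, SIX5, TFAP2C, TWIST1, SOX9, DLX3, NKX2-5, IRX3, IRX5, FOXA2, FOXC2 and GATA4. A CpG ratio above 0.6 was found for 20 of the 29 (69.0%), against 63.2% of 15843 promoters of protein-coding genes. A CAAT element stood in 17 of the 29 (58.6%) against 34.5%, a GC box in 18 (62.1%) against 55.8%, and a TATA element in 1 (3.45%) against 9.35%.

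Expression of the 42 factors spanned the whole range from silence to high abundance. GATA4, a heart and endoderm factor, MEIS1, a homeodomain cofactor of HOX proteins, and IRX2 had no read in any library, which allows a level of up to 0.0683 to 0.118 CPM (3 counts per library, counting error only). SOX2 of pluripotent cells, DLX3, and the heart factors NKX2-5 and HAND1 had between 0 and 9 reads per library and did not pass the filter on low counts. The other 35 factors entered the tests. On the length-corrected scale of the deposited RPKM values, 9 of these 35 averaged above 10 RPKM over the 8 libraries, 14 lay between 1 and 10, and 12 below 1.

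**Figure D1:**
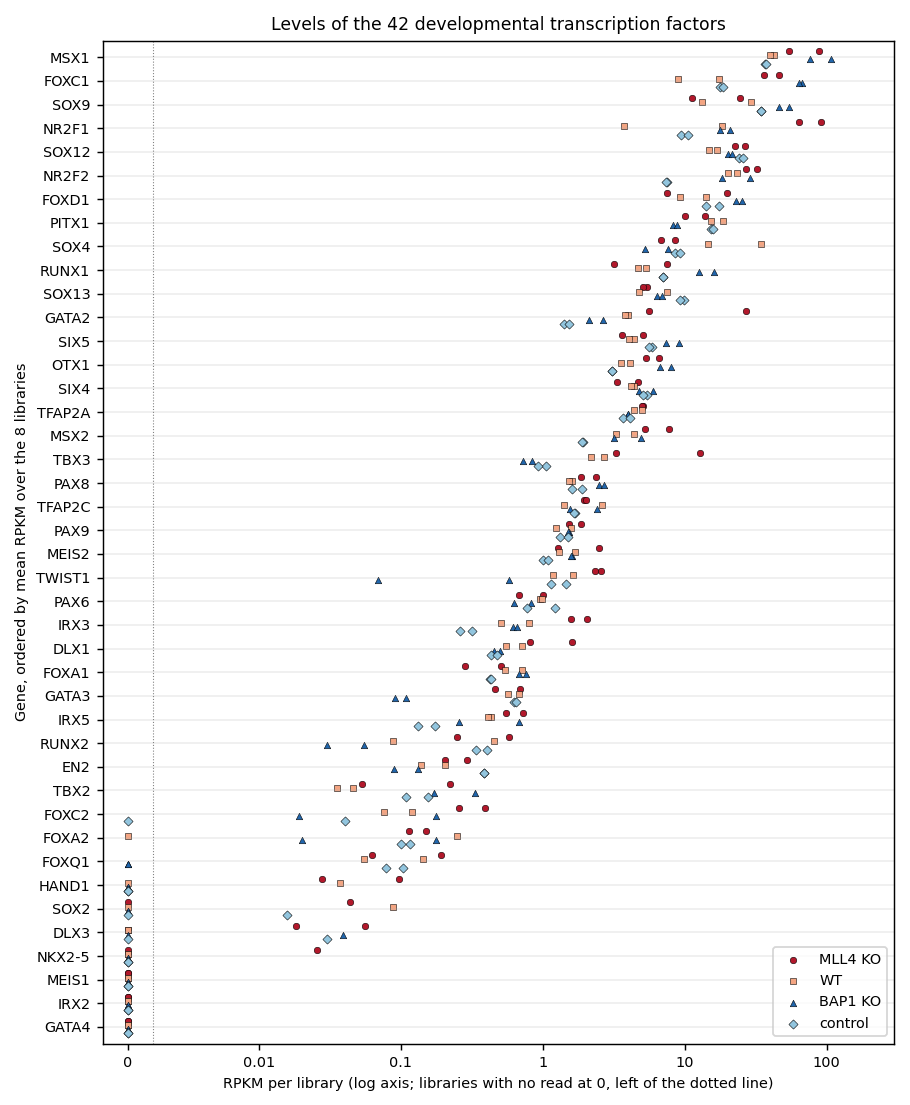
Level of each factor in each library as RPKM on a log axis, with genes ordered by their mean, 1 point per library and 1 symbol per group; libraries with no read stand at 0. MSX1 leads at a mean of 60.5 RPKM, the 35 tested factors reach down to FOXQ1 at 0.0793 RPKM, and 3 factors have no read in any library.

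The highest mean levels were those of MSX1 (60.5 RPKM), a homeodomain repressor of tooth and craniofacial development, FOXC1 (34.4 RPKM), a forkhead factor of eye and mesenchyme, and SOX9 (30.8 RPKM), a factor of cartilage and of intestinal crypts. NR2F1 followed at 29.5 RPKM, SOX12 at 21.5, NR2F2 at 20.6, FOXD1 at 16.3, PITX1 at 13.3 and SOX4 at 11.9 RPKM. FOXQ1, FOXA2, FOXC2, TBX2, EN2 and RUNX2 averaged at most 0.275 RPKM, so their changes rest on few reads.

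In MLL4 KO against WT, the factors that changed mostly rose. Of the 35 tested, 6 rose and 1 fell (edgeR quasi-likelihood test, adjusted p below 0.05 over 16831 genes), that is 7 of 35 where 19.1% of all tested genes were called (9.13% higher and 10.0% lower). The share of factors called is near that background. Their median log2 fold change was 0.45, with 27 positive and 8 negative. Over all tested genes the median was 0.00, with 8468 positive and 8361 negative. The list was drawn up with earlier results of these data known, so its median and signs are not independent of them. The factors that rose were NR2F1, FOXC1, IRX3, MSX1, OTX1 and SOX12, and SOX4 fell. The call threshold for MLL4 KO rests on the spread estimated from all 8 libraries: with only the 4 MLL4 KO and WT libraries in the fit, edgeR called 0 of the 7 (60 genes in all), at adjusted p 0.0786 to 0.127. On those 4 libraries 12 factors had an unadjusted p below 0.05 in edgeR, and DESeq2 called 6. In bulk RNA, fewer cells with a factor and less RNA per cell cannot be told apart.

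Among the nuclear receptors, NR2F1, also called COUP-TFI and known for patterning the cerebral cortex, had 307 and 447 CPM in MLL4 KO, against 85.5 and 18.2 CPM in WT. Both MLL4 KO libraries lay above both WT libraries, and the WT libraries themselves stood far apart. The change was 2.87 ± 0.69 (log2 fold change ± SE; adjusted p = 0.0419), the largest among the called factors in this comparison, and it was 4.37 without WT replicate 1 and 2.14 without WT replicate 2, both called. Its relative NR2F2 (COUP-TFII), a factor of veins and mesenchyme, had 179 and 216 CPM in MLL4 KO, against 132 and 158 CPM in WT, without overlap but short of the threshold (0.45 ± 0.20, adjusted p = 0.136).

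Of the 6 forkhead factors tested, FOXC1 passed. It had 178 and 231 CPM in MLL4 KO, against 85.3 and 45.1 CPM in WT, a change of 1.66 ± 0.27 (adjusted p = 0.0109). Its relative FOXC2, a factor of lymphatic vessels, had 41 and 48 reads in MLL4 KO, against 11 and 9 reads in WT (1.74 ± 0.68, adjusted p = 0.0973). The pioneer factor FOXA1 leaned the other way, with 2.23 and 1.26 CPM in MLL4 KO against 3.06 and 2.41 CPM in WT (-0.60 ± 0.32, adjusted p = 0.204).

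Among the homeodomain factors, IRX3, a TALE-class factor of neural and limb patterning, had 6.67 and 5.27 CPM in MLL4 KO, against 2.56 and 1.69 CPM in WT. The 2 groups did not overlap, and the change was 1.52 ± 0.27 (adjusted p = 0.0116). MSX1 had 131 and 219 CPM in MLL4 KO, against 101 and 98.7 CPM in WT (0.81 ± 0.23, adjusted p = 0.0444). OTX1, a forebrain factor, had 19.8 and 24.6 CPM in MLL4 KO, against 14.9 and 13.4 CPM in WT (0.65 ± 0.17, adjusted p = 0.0297). These groups did not overlap either, yet MSX1 in MLL4 KO replicate 1 exceeded WT only modestly. MSX2, a paralog of MSX1, had 21.5 and 14.7 CPM in MLL4 KO, against 11.9 and 9.22 CPM in WT, and stayed just short of the threshold (0.79 ± 0.26, adjusted p = 0.0573).

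The SOX factors moved in opposite directions. SOX12 and SOX4 belong to the same SOXC subgroup, whose members act in neural and mesenchymal progenitors. SOX12 had 132 and 157 CPM in MLL4 KO, against 97.3 and 87.4 CPM in WT (0.64 ± 0.13, adjusted p = 0.0155). SOX4 had 41.4 and 52.9 CPM in MLL4 KO, against 207 and 91.2 CPM in WT, and was the 1 factor that fell (-1.66 ± 0.38, adjusted p = 0.0291). The WT libraries stood far apart for SOX4, and without WT replicate 1 the change was -0.96, still called. SOX9 had 55.2 and 121 CPM in MLL4 KO, against 140 and 66.2 CPM in WT, so that the groups overlapped (adjusted p = 0.747).

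GATA2 and TBX3 had high folds that were carried by a single library. GATA2, a factor of blood stem cells, had 117 and 24.5 CPM in MLL4 KO, against 16.9 and 16.7 CPM in WT (2.08 ± 0.67, adjusted p = 0.0817). TBX3, a T-box repressor of limb and mammary development, had 76.4 and 20.1 CPM in MLL4 KO, against 13.0 and 16.4 CPM in WT (1.72 ± 0.57, adjusted p = 0.0816). In both, MLL4 KO replicate 1 stood far above the other 3 libraries. Without that library the changes were 0.55 for GATA2 and 0.45 for TBX3, neither called, whereas without MLL4 KO replicate 2 they were 2.82 and 2.40 and both were called (adjusted p = 0.000591 for GATA2 and 0.00157 for TBX3). Over all alternatives the adjusted p ranged from 0.000591 to 0.318 for GATA2 and from 0.00157 to 0.261 for TBX3.

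**Figure D2:**
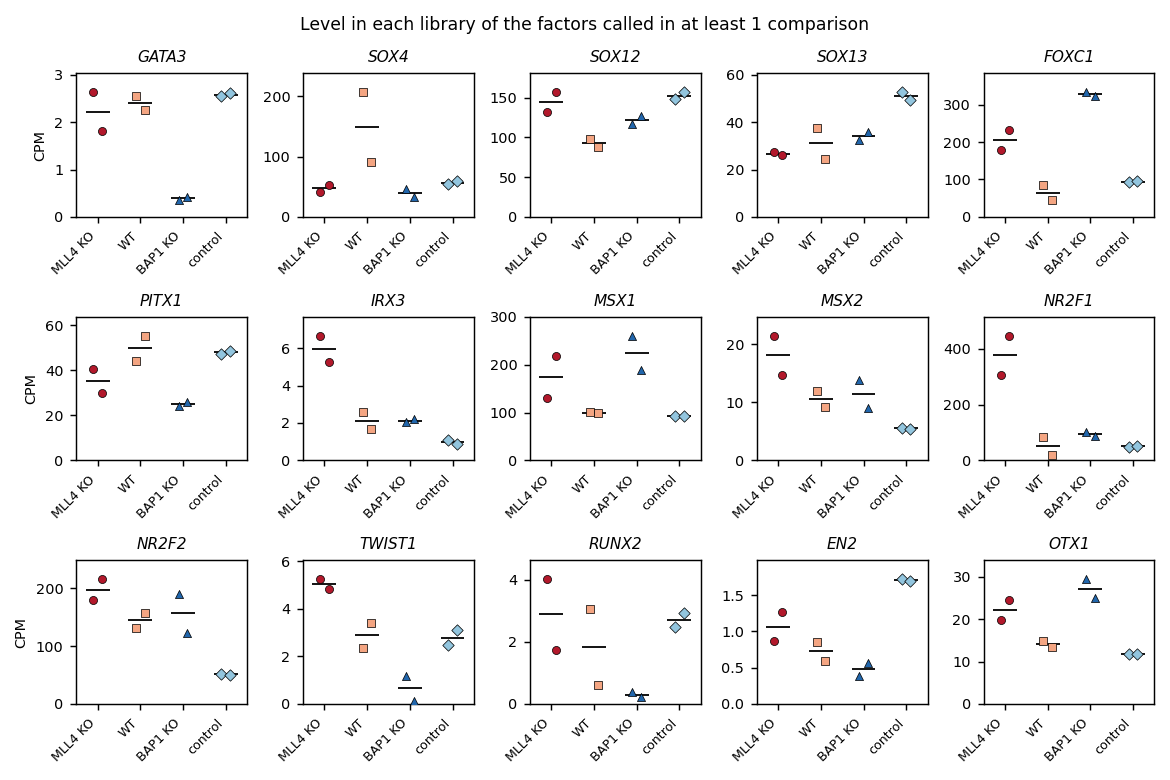
CPM in each of the 8 libraries for the 15 factors called in at least 1 of the 4 comparisons, with 1 point per library and a line at the group mean on axes that start at 0. FOXC1, MSX1 and OTX1 are higher in both knockouts than in their own unedited groups, GATA3, RUNX2, EN2, PITX1 and TWIST1 are lowest in BAP1 KO, and NR2F1 stands highest in MLL4 KO.

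With all libraries edgeR called no tested factor beyond these 7 in MLL4 KO, while DESeq2 called 11, among them GATA2 (2.06), TBX3 (1.71), PITX1 (-0.51) and MSX2 (0.77). The paired box factors PAX6, PAX8 and PAX9, the homeodomain factors SIX4 and SIX5, the AP-2 factors TFAP2A and TFAP2C and the Runt factors RUNX1 and RUNX2 ranged from -0.21 for PAX6 to 0.76 for RUNX2. PITX1, a hindlimb factor, had 40.4 and 30.0 CPM in MLL4 KO, against 44.2 and 55.4 CPM in WT (-0.50 ± 0.17, adjusted p = 0.0654). Leaving out 1 library ended calls in each case. Without MLL4 KO replicate 2 only IRX3 of the 7 stayed called. SOX12, IRX3, MSX1 and OTX1 were lost without WT replicate 2, SOX4, MSX1, NR2F1 and OTX1 without either control library, SOX4 and NR2F1 without MLL4 KO replicate 1, MSX1 and NR2F1 without either BAP1 KO library, and MSX1 without WT replicate 1. The adjusted p of the lost calls lay between 0.0508 and 0.216. Further factors passed with 1 library left out, at adjusted p 0.0229 to 0.0480. These were PITX1 without MLL4 KO replicate 1 or WT replicate 1, MSX2 and RUNX2 without WT replicate 1, DLX1 without MLL4 KO replicate 2 and RUNX1 without MLL4 KO replicate 1.

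In BAP1 KO against control, 5 factors rose and 5 fell. That is 10 of 35 where 22.4% of all tested genes were called (12.1% higher and 10.4% lower), a count not far from that background. The median log2 fold change was 0.48, with 21 positive and 14 negative. Over all tested genes it was 0.01, with 8613 positive and 8199 negative. Here too the list was not independent of these data. The factors that rose were FOXC1, NR2F2, MSX1, OTX1 and MSX2. Of these FOXC1, NR2F2 and MSX1 are among the more abundant factors, while OTX1 and MSX2 averaged 5.06 and 4.07 RPKM. Those that fell were RUNX2, GATA3, TWIST1, EN2 and PITX1, of which all but PITX1 are low in these cells.

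FOXC1 had 334 and 322 CPM in BAP1 KO, against 92.2 and 96.7 CPM in control. The change was 1.80 ± 0.27 (adjusted p = 0.00273), and the difference between groups far exceeded that between replicates. No other forkhead factor was called by edgeR with all libraries. FOXQ1, an epithelial forkhead factor that lies 295 kb from FOXC1 on chromosome 6, had no read in either BAP1 KO library, against 7 and 14 reads in control, at least 3.13-fold lower against a floor of 3 counts per library, with an adjusted p of 0.0556 by edgeR. It passed in 7 of 18 alternatives, DESeq2 and limma-voom among them, with adjusted p from 0.013 to 0.226 over the alternatives. FOXC2 had 20 and 2 reads in BAP1 KO, against 0 and 6 reads in control, too few to show a change.

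NR2F2 had 190 and 123 CPM in BAP1 KO, against 52.4 and 50.8 CPM in control (1.61 ± 0.20, adjusted p = 0.000939). The same gene was at 132 and 158 CPM in WT, so BAP1 KO stood near WT while control stood below it. NR2F1 had 101 and 85.9 CPM in BAP1 KO, against 47.5 and 52.3 CPM in control. Its groups did not overlap, but with the spread estimated over all libraries the change was not called (0.90 ± 0.66, adjusted p = 0.386).

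MSX1 had 261 and 188 CPM in BAP1 KO, against 93.6 and 93.8 CPM in control (1.26 ± 0.24, adjusted p = 0.00683). MSX2, which acts with MSX1 in skull and tooth formation, had 13.8 and 8.98 CPM in BAP1 KO, against 5.64 and 5.49 CPM in control (1.04 ± 0.28, adjusted p = 0.0257). In WT it was at 11.9 and 9.22 CPM, so BAP1 KO stood near WT while control stood below it. OTX1 had 29.5 and 25.0 CPM in BAP1 KO, against 11.9 and 11.8 CPM in control (1.20 ± 0.17, adjusted p = 0.00144). In all 3, both BAP1 KO libraries exceeded both control libraries, the same values that the calls rest on. The Iroquois genes IRX3 and IRX5, neighbours 644 kb apart on chromosome 16, leaned upward without passing. IRX3 had 2.04 and 2.21 CPM in BAP1 KO, against 1.1 and 0.897 CPM in control (1.11 ± 0.36, adjusted p = 0.0513). IRX5 had 2.04 and 0.784 CPM in BAP1 KO, against 0.548 and 0.410 CPM in control (1.62 ± 0.54, adjusted p = 0.0583). In WT, IRX3 was at 2.56 and 1.69 CPM and IRX5 at 1.28 and 1.25 CPM. For both genes the BAP1 KO mean stood near that of WT, while control stood below it.

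GATA3, a factor of T cells and luminal epithelium, had 11 and 12 reads in BAP1 KO (0.351 and 0.427 CPM), against 65 and 102 reads in control (2.55 and 2.62 CPM). The change was -2.73 ± 0.40 (adjusted p = 0.00176). RUNX2, the master regulator of bone formation, had 12 and 6 reads in BAP1 KO (0.383 and 0.214 CPM), against 63 and 114 reads in control (2.47 and 2.92 CPM). Its change was -3.15 ± 0.88 (adjusted p = 0.0354), and the other Runt factor, RUNX1 of blood stem cells, had 146 and 117 CPM in BAP1 KO, against 67.9 and 66.7 CPM in control (0.97 ± 0.36, adjusted p = 0.100). RUNX1 was not called, although its groups did not overlap.

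TWIST1, a helix-loop-helix factor of mesoderm, had 1.18 and 0.142 CPM in BAP1 KO, against 2.47 and 3.10 CPM in control (-2.04 ± 0.54, adjusted p = 0.0257). The BAP1 KO libraries stood far apart, and the change was -4.27 without BAP1 KO replicate 1, still called, and -1.25 without BAP1 KO replicate 2 (adjusted p = 0.0847; 0.00334 to 0.166 over all alternatives). EN2, an Engrailed factor of the midbrain, had 0.383 and 0.570 CPM in BAP1 KO, against 1.72 and 1.69 CPM in control (-1.84 ± 0.41, adjusted p = 0.0126). In WT it was at 0.853 and 0.594 CPM, so control stood above WT, and BAP1 KO a little below WT. PITX1 had 24.1 and 26.1 CPM in BAP1 KO, against 47.4 and 48.4 CPM in control (-0.93 ± 0.17, adjusted p = 0.00536). In each of the 5 factors that fell, both BAP1 KO libraries lay below both control libraries, but the calls rest on these same values. The groups were also separate for factors that were not called, such as SOX9, FOXD1 and NR2F1.

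**Figure D3:**
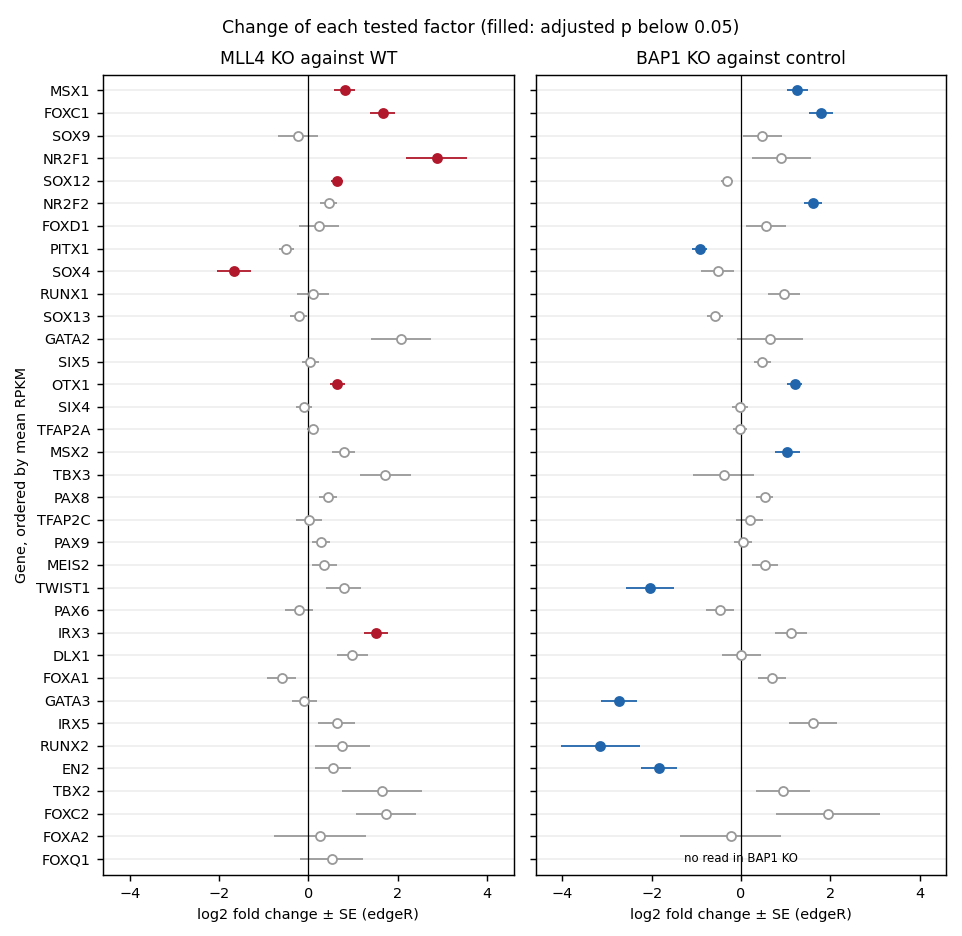
Log2 fold change with its SE for the 35 tested factors in MLL4 KO against WT (left) and BAP1 KO against control (right), ordered by mean RPKM, with filled points for adjusted p below 0.05; FOXQ1 has no read in BAP1 KO and no point there. MLL4 KO shows 6 filled points above 0 and 1 below, and BAP1 KO 5 above and 5 below.

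GATA3, FOXC1, NR2F2 and OTX1 stayed called in BAP1 KO under every one of 20 alternatives. Among the other 6, PITX1, MSX1, MSX2, RUNX2 and EN2 were lost without BAP1 KO replicate 1, TWIST1 and RUNX2 without BAP1 KO replicate 2, MSX1, MSX2, TWIST1, RUNX2 and EN2 without control replicate 1, and all 6 without control replicate 2, at adjusted p 0.0504 to 0.212. Further factors passed with 1 library left out, at adjusted p 0.00255 to 0.0484. These were NR2F1, IRX3 and SOX13 without either WT library, RUNX1 and GATA2 without either MLL4 KO library, FOXQ1 without any 1 of those 4, SIX5 without MLL4 KO replicate 1 and IRX5 without BAP1 KO replicate 2. With only the 4 BAP1 KO and control libraries in the fit, 23 factors were called (15 higher and 8 lower) among 6659 genes, the 10 included. The control libraries were closer to each other than those of any other group, with a median difference of 0.0958 on the log2 scale, against 0.189 in BAP1 KO, 0.222 in MLL4 KO and 0.289 in WT.

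**Figure D4:**
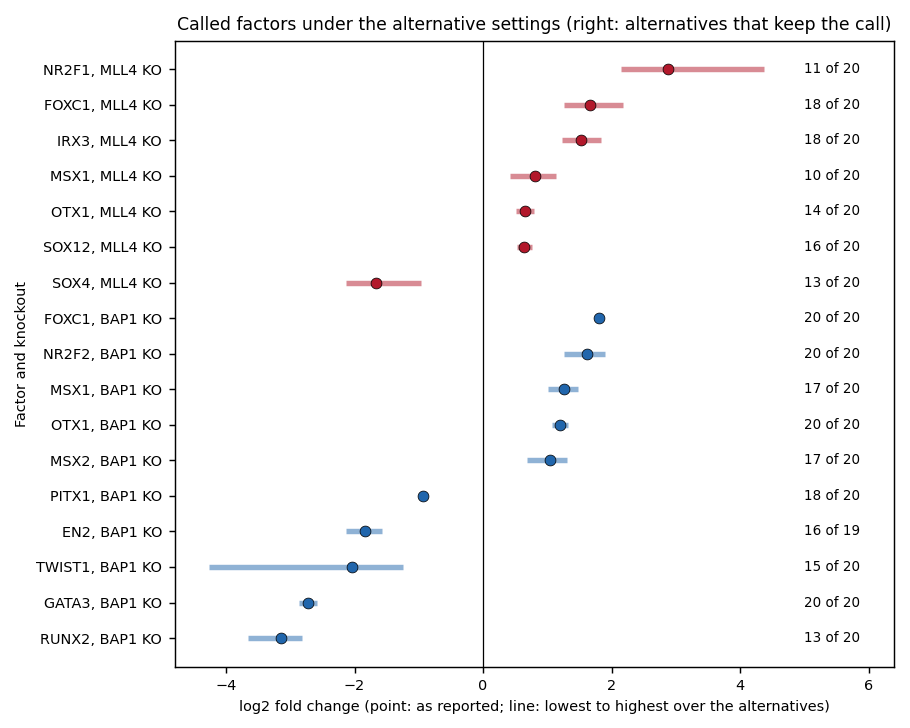
Log2 fold change of each called factor as reported (point) and its lowest and highest value over the alternative settings (line), with the number of alternatives that keep the call at the right. No call changes direction, for which groups without overlap leave little room. In MLL4 KO calls are kept in 10 (MSX1) to 18 (FOXC1, IRX3) of 20 alternatives, and in BAP1 KO 4 factors are kept in all 20.

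Across both knockouts, FOXC1, MSX1 and OTX1 were called higher in each. These 3 are 42.9% of the factors called in MLL4 KO and 30.0% of those called in BAP1 KO. Over all genes, 670 were called in the same direction in both, 20.8% of the genes called in MLL4 KO and 17.7% of those called in BAP1 KO. The effects on FOXC1 were close in size, at 1.66 and 1.80, and their difference of -0.14 ± 0.37 was not called (adjusted p = 0.821). The differences for MSX1 (-0.45 ± 0.33) and OTX1 (-0.55 ± 0.24) were not called either, at adjusted p = 0.379 and 0.140.

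The difference between the knockouts' effects was itself called for 6 factors, 5 positive and 1 negative, where 16.1% of all tested genes were called (7.75% positive and 8.32% negative). GATA3, TWIST1, RUNX2 and EN2 fell in BAP1 KO and had no called change in MLL4 KO, where they measured -0.09, 0.79, 0.76 and 0.55 on the log2 scale. In MLL4 KO, GATA3 had 2.64 and 1.81 CPM, against 2.56 and 2.25 CPM in WT, and EN2 had 0.865 and 1.26 CPM, against 0.853 and 0.594 CPM in WT. TWIST1 had 5.26 and 4.85 CPM in MLL4 KO, against 2.37 and 3.41 CPM in WT, and RUNX2 had 4.03 and 1.75 CPM in MLL4 KO, against 3.06 and 0.625 CPM in WT. The MLL4 KO effect minus the BAP1 KO effect was 2.64 ± 0.50 for GATA3 (adjusted p = 0.0101), 2.83 ± 0.67 for TWIST1 (adjusted p = 0.0219), 3.91 ± 1.09 for RUNX2 (adjusted p = 0.0441) and 2.40 ± 0.58 for EN2 (adjusted p = 0.0246). SOX12 also differed (0.96 ± 0.18, adjusted p = 0.00966), with 117 and 127 CPM in BAP1 KO against 148 and 157 CPM in control. NR2F2 differed in the other direction (-1.16 ± 0.28, adjusted p = 0.0250). None of the 6 differences was called by edgeR without control replicate 2, where 7 factors had an unadjusted p below 0.05. Without BAP1 KO replicate 1 all but TWIST1 were lost, without control replicate 1 NR2F2, TWIST1, RUNX2 and EN2, without WT replicate 2 NR2F2 and EN2, without MLL4 KO replicate 1 NR2F2 and RUNX2, without MLL4 KO replicate 2 EN2 and without BAP1 KO replicate 2 RUNX2, at adjusted p 0.0541 to 0.156. The size for TWIST1 was 5.06 without BAP1 KO replicate 1 and 2.05 without replicate 2, both called. For RUNX2 it was 5.40 without WT replicate 1 and 3.11 without WT replicate 2, both called, and 3.15 without MLL4 KO replicate 1. Differences for GATA2, TBX3 and RUNX1 were called without MLL4 KO replicate 2, for SOX13, FOXQ1 and NR2F1 without WT replicate 1, for SOX4 and NR2F1 without WT replicate 2 and for FOXA1 without MLL4 KO replicate 1, at adjusted p 0.000557 to 0.0442.

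The unedited groups were not alike. In control against WT, 39.6% of all tested genes and 7 of the 35 factors were called. Among the factors 3 were higher and 4 lower, and among all genes 19.9% were higher and 19.7% lower. SOX12 (0.72 ± 0.13), SOX13 (0.72 ± 0.19) and EN2 (1.26 ± 0.38) were higher in control, at adjusted p = 0.00230, 0.0139 and 0.0271. NR2F2 (-1.49 ± 0.20), SOX4 (-1.39 ± 0.37), IRX3 (-1.09 ± 0.36) and MSX2 (-0.92 ± 0.28) were lower, at adjusted p = 0.000661, 0.0240, 0.0372 and 0.0263. SOX13 had 52.8 and 49.4 CPM in control, against 37.7 and 24.6 CPM in WT. SOX4 had 54.6 and 58.7 CPM in control, close to its level in both knockouts, with WT alone above. Cell line, handling and read processing cannot be told apart in this comparison, since the names of the control and BAP1 KO tables mention STAR and those of WT and MLL4 KO do not. SOX12 and NR2F2 kept their call with any 1 library left out. SOX4, SOX13, IRX3, MSX2 and EN2 were lost without either control library, IRX3 and MSX2 also without WT replicate 1, EN2 without WT replicate 2 and IRX3 without either BAP1 KO library, at adjusted p 0.0544 to 0.232. For SOX4 the change was -0.69 without WT replicate 1, still called. Called with 1 library left out were GATA2, TBX3, SIX5 and RUNX1 without either MLL4 KO library, IRX5 without either BAP1 KO library, NR2F1 without either WT library, and FOXC1 and RUNX2 without WT replicate 1, at adjusted p 0.000501 to 0.0334.

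Relatives from the same 13 families, also listed with earlier results of these data known, were examined as well. Of 106 listed relatives 59 were tested, and 11 rose and 4 fell in MLL4 KO, where 9.13% of all tested genes rose and 10.0% fell, with a median log2 fold change of 0.26. The 5 with the smallest adjusted p were FOXP2 (2.34 ± 0.43), a forkhead factor of speech-related circuits, FOXD4 (-1.69 ± 0.32), TBX19 (1.32 ± 0.26) of pituitary cells, the orphan receptor NR2F6 (-0.61 ± 0.13) and MEIS3 (1.34 ± 0.27), at adjusted p 0.0128 to 0.0179. In BAP1 KO 10 relatives rose and 3 fell, where 12.1% of all tested genes rose and 10.4% fell, with a median of 0.12. Those with the smallest adjusted p included FOXM1 (1.56 ± 0.13), a driver of mitotic genes, FOXO6 (1.29 ± 0.22), MEIS3 (1.18 ± 0.27) and FOXH1 (0.86 ± 0.20), a partner of SMAD proteins, at adjusted p 0.000142 to 0.0163.

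Some of these relatives also differed between the unedited groups. FOXM1 had 115 and 98.7 CPM in MLL4 KO, 140 and 164 CPM in WT, 56.1 and 55.5 CPM in BAP1 KO and 18.6 and 19.2 CPM in control, so that control stood lowest and BAP1 KO lay between control and WT. MEIS3, called higher in both knockouts, had 40.3 and 56.1 CPM in MLL4 KO, against 25.0 and 13.2 CPM in WT. Its level in BAP1 KO was 67.4 and 65.6 CPM in BAP1 KO, against 27.9 and 30.7 CPM in control. In control against WT 5 relatives were higher and 9 lower, where 19.9% of all tested genes were higher and 19.7% lower. Among those with the smallest adjusted p were FOXM1 (-3.01 ± 0.14), FOXP2 (3.02 ± 0.42), FOXK1 (-0.75 ± 0.12) and SOX18 (-1.45 ± 0.24).

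Of 24 listed proteins that partner these factors 19 were tested, and 2 were called in MLL4 KO and 8 in BAP1 KO, where 19.1% and 22.4% of all tested genes were called. In MLL4 KO the Groucho corepressor TLE1 fell (-1.34 ± 0.21, adjusted p = 0.00865) and TLE5, a short Groucho-related protein, rose (0.39 ± 0.11, adjusted p = 0.0406). In BAP1 KO 5 rose and 3 fell. The 5 leading ones were KCTD15, an inhibitor of AP-2 factors (-1.35 ± 0.15), CBFB, the common partner of Runt factors (0.67 ± 0.14), CITED1, a transcriptional coactivator (1.78 ± 0.39), the TALE cofactor PBX4 (0.95 ± 0.21) and the E protein TCF3, which pairs with TWIST1 (0.51 ± 0.11), at adjusted p 0.000500 to 0.0114. CBFB had 110 and 110 CPM in BAP1 KO, against 68.4 and 70.3 CPM in control, with 102 and 135 CPM in WT. KCTD15, CBFB and TCF3 were also called in control against WT, at 1.17, -0.77 and -0.84.

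Some of the factors overlap or lie near other genes. The library kit does not mark strand, so reads from bases shared by genes on opposite strands cannot be told apart. Overlap was judged by whole gene spans, and whether exons or reads are shared was not tested. GATA2-AS1, which overlaps GATA2, rose in MLL4 KO (1.74, adjusted p = 0.0261), and NR2F2-AS1, which overlaps NR2F2, rose in BAP1 KO (1.52, adjusted p = 0.0184). SUPT3H, whose span overlaps that of RUNX2 on the opposite strand, fell in BAP1 KO (-0.94, adjusted p = 0.0114), less than RUNX2 did. NR2F1-AS1 averaged 15.9 CPM in MLL4 KO and 6.41 CPM in WT (1.34, adjusted p = 0.137). ELP4, which overlaps PAX6, and TFAP2A-AS1, which overlaps TFAP2A, rose in BAP1 KO (0.77, adjusted p = 0.0108, and 1.17, adjusted p = 0.0472), where PAX6 and TFAP2A were not called. PITX1-AS1 was not called in either knockout.

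Several relatives that lie beside a factor were called in MLL4 KO. DLX1, a forebrain factor, had 4.69 and 2.44 CPM in MLL4 KO, against 2.06 and 1.66 CPM in WT (0.98 ± 0.35, adjusted p = 0.0760), while DLX2, 9.76 kb away, had 20.3 and 10.8 CPM in MLL4 KO, against 6.13 and 4.5 CPM in WT, and was called (1.57 ± 0.34, adjusted p = 0.0192). FOXL1, 8.82 kb from FOXC2, had 6.78 and 9.88 CPM in MLL4 KO, against 3.72 and 4.12 CPM in WT (1.07 ± 0.25, adjusted p = 0.0225). Beside DLX3, which had few reads, DLX4 (15.0 kb away) rose in MLL4 KO (1.42 ± 0.37, adjusted p = 0.0339). NKX2-8, 75.0 kb from PAX9, rose in MLL4 KO (0.92 ± 0.21, adjusted p = 0.0215), while PAX9 itself measured 0.28 ± 0.20 (adjusted p = 0.343).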

How the data were processed

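RNA-seq of HCT116 was deposited as 1 table per library for 8 libraries, grouped by sample title. The read counts per RefSeq transcript are the authors' whole numbers, not normalized, and the RPKM values are the authors' scaling by transcript length and library size, per the file headers. The submitters' processing notes name hg38, bcl2fastq, Bowtie2, STAR and SICER 1.1 without roles; the sources used here do not say how reads were counted or with what strand setting and annotation. Identifiers were matched to symbols through the RefSeq table of GRCh38.p14, and 605 rows with no symbol (0.230% to 0.252% of counts) were left out. In every library more genes had 2 reads than 1, so a read may not be an independent molecule.

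The test used edgeR 4.0.16 (R 4.3.3): filterByExpr (16831 of 28105 genes), TMM, 1 quasi-likelihood model (robust, a mean per group) on all 8 libraries, two-sided, Benjamini-Hochberg over all tested genes, threshold 0.05. SE is the fitted log2 change divided by the root of its F value. The procedure was tested on simulated data with the same spread in every group and changes only in well-counted genes. The real groups differ in spread, so that test does not cover this difference. Alternatives were DESeq2 1.42.0, limma-voom (limma 3.58.1), scaling by RLE or by the upper quartile, no filter and a stricter filter (1 CPM in 4 libraries), only the 4 libraries compared, summed or longest transcript rows, a replicate block and each library left out. A crossed block, the legacy dispersion and DESeq2 on the 4 libraries compared were added after seeing the data. The factors, relatives, partners and markers were chosen with earlier results of these data known. Named genes are all listed factors, the 5 relatives and partners per comparison with the smallest adjusted p (1 relative is not reported here), overlapping or neighbouring genes, and the targeted genes. Promoter letters come from RefSeq (GRCh38.p14).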

Additional observations from a re-analysis of the deposited data

Results flagged for a closer look

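For 6 of the 35 tested factors the effects of the knockouts differed by a test of the difference itself (MLL4 KO effect minus BAP1 KO effect, edgeR, log2 scale). Of all tested genes 16.1% were called in that test, so the share of factors is near the background. The value was 2.64 for GATA3, 2.83 for TWIST1, 3.91 for RUNX2 and 2.40 for EN2, which fell in BAP1 KO and were not called in MLL4 KO. It was 0.96 for SOX12, which was called higher in MLL4 KO only, and -1.16 for NR2F2, which was called higher in BAP1 KO only. The 2 knockouts were each measured against another unedited group, and SOX12, NR2F2 and EN2 also differed between control and WT. Without BAP1 KO replicate 1 the difference was 5.06 for TWIST1, and without replicate 2 it was 2.05. For RUNX2 it was 5.40 without WT replicate 1, 3.11 without WT replicate 2 and 3.15 without MLL4 KO replicate 1. Leaving out 1 library also ended calls among the 6, as described above.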

How the results depend on the processing

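None of the 30 called results of single factors changed direction in 591 checks under alternatives. Outside the tests of the difference, the groups compared did not overlap for any called result, which left little room for a reversal. The call was kept in 471 checks and lost in 120, and 6 results were kept in every alternative. Of 13 changes of sign, all in values not called as reported, 1 came with a call: NR2F1 in control against WT was -0.05 as reported, 1.46 without WT replicate 1, where it was called, -0.77 without WT replicate 2, also called, 0.03 without control replicate 1 and 0.39 with limma-voom. RUNX1 in MLL4 KO, 0.10 as reported, lay between -0.63 and 0.60 with 1 library left out, and was -0.05 with limma-voom, -0.01 with the replicate block and -0.02 with the crossed block. With 1 library left out RUNX2 lay between -0.04 and 2.24 in MLL4 KO and between -0.17 and 2.12 in control against WT (0 with the replicate block), and the difference for GATA2 between -0.10 and 2.17; the upper end was called in each, RUNX1 included. The causes were not tested. In MLL4 KO against WT, DESeq2 called 11 factors in place of 7, and a fit on only the 4 libraries compared called 0 factors (60 genes in place of 3219). In BAP1 KO against control that fit called 23 factors in place of 10 (6659 genes in place of 3778). With a replicate block, 2 factors and 792 genes were called in MLL4 KO, 10 factors and 2481 genes in BAP1 KO, 1352 genes for the difference (2704 without it), and 4 factors and 3072 genes in control against WT (7 and 6662 without it). Same-numbered libraries deviated with a correlation of -0.134 (MLL4 KO and WT) and 0.00288 (BAP1 KO and control). With so few libraries this does not show whether any of them shared a batch. With a crossed block, 3998 genes were called in MLL4 KO and 4211 in BAP1 KO. With 1 library left out, 3 to 9 factors and 530 to 5290 genes were called in MLL4 KO, 4 to 14 factors and 1076 to 5015 genes in BAP1 KO, 0 to 9 factors and 681 to 4426 genes for the difference, and 2 to 11 factors and 3253 to 7267 genes in control against WT. Where this leaves 1 library in a group, it is assumed to vary like the others. Upper-quartile scaling called 1886 genes higher and 1211 lower in MLL4 KO (1536 and 1683 as reported) and 1588 and 1080 for the difference (1304 and 1400), and shifted the median of all genes by 0.0842 in MLL4 KO, -0.0184 in BAP1 KO, 0.106 for the difference and 0.0551 in control against WT. Factors under 1 RPKM rest on few reads, and with 2 libraries per group a change missed here is not shown to be absent.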
